A study of Rattus norvegicus with 12 samples.

Results

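The 10 genes described here form the angiogenesis and endothelial tip set: Prnd, Kdr, Flt1, Tek, Apln, Aplnr, Esm1, Angpt2, Vegfa and Vwf. They were taken by symbol from a table of 30206 genes, and all 10 were among the 14599 genes that passed the low-count filter. The set was chosen by the fall of Prnd in the 3-week comparison, so the 3-week values below are a description, and tests of the members are given for 1 week only. The question was whether, library by library, the low Prnd at 3 weeks came with other sprouting genes or with stable endothelial genes.

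Simulated birth injury (SBI), a vaginal balloon distention, was given late in pregnancy to female Sprague-Dawley rats of 3 months of age. After delivery, the pups were either left with the dam (SBI + Lac) or removed (SBI). Bulk RNA came from the pubocaudalis, a muscle of the pelvic floor. The non-lactating groups are named 1wk SBI and 3wk SBI by the time since injury, and their lactating counterparts 1wk SBI + Lac and 3wk SBI + Lac. Each of the 4 groups has 3 libraries, and each library pools 2 rats. All 4 groups had been pregnant and injured, so neither pregnancy nor injury is a contrast here. Total counts ran from 10082734 to 75634391 per library. Levels are CPM, the read counts relative to library totals corrected by TMM factors, a fold change is lactating over non-lactating on the log2 scale with its standard error (SE), and a gene was called at an edgeR adjusted p under 0.05 with an absolute log2 fold change over 1.

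New capillaries grow by sprouting. Vegfa, a secreted growth factor, acts through the receptor Kdr, while Flt1 binds the same ligand and limits its supply. The endothelial cell that leads a sprout, the tip cell, is marked by Esm1, Apln and Angpt2, and the cells behind it carry Aplnr, the apelin receptor. Tek is the receptor of the angiopoietins, Vwf is a clotting protein stored in resting endothelium, and Prnd encodes doppel, a relative of the prion protein that is found in testis and in growing vessels. In skeletal muscle, most endothelial cells line the capillaries between the fibers.

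The sequences upstream of Prnd, of its neighbour and paralog Prnp, of Apln and of Esm1 are shown because Prnd chose the set, Prnp lies next to it, and Apln and Esm1 are tip cell markers with 3-week fold changes of opposite sign. Each is the 250 bases before the start site in RefSeq GRCr8, written 5′ to 3′ on the gene's strand: Prnd chr3:139666133-139666382 (+), Prnp chr3:139638826-139639075 (+), Apln chrX:132091247-132091496 (-) and Esm1 chr2:46609003-46609252 (+). Capitals mark the hypoxia response core, ACGTG or GCGTG on either strand.
Prnd: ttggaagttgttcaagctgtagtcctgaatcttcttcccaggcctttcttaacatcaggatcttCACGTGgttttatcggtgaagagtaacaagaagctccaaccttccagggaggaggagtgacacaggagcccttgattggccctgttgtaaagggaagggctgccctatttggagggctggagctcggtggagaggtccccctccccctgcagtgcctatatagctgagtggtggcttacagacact
Prnp: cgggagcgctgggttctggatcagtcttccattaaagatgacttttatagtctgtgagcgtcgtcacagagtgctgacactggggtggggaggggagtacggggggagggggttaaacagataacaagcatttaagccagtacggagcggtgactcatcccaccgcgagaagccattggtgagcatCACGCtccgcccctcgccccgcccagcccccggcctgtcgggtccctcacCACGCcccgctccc
Apln: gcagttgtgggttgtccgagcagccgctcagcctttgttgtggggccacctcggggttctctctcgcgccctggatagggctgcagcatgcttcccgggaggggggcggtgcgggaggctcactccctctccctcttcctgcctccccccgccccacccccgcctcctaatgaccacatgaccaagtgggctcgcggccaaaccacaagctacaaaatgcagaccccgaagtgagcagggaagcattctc
Esm1: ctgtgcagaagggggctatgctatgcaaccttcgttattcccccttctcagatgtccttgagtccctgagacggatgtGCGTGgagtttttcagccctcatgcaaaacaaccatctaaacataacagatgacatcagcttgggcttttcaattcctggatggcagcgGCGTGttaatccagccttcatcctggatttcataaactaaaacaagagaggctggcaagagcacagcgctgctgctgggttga
In the Prnd sequence the 2 matches are one palindrome read on both strands. The Prnp and Esm1 sequences held 2 matches each, and the Apln sequence held 0. Of 33469 promoter windows of this length, 36.7% held at least 1 match. Among the other members, Kdr held 2 matches, Flt1 held 1, and Vegfa held 0 at both of its start sites. The RBPJ core TGGGAA, a Notch pathway motif, is held by 22.1% of all windows. It matched once in Prnd, once in Kdr, and 2 times at 1 of the Vegfa start sites. The string CGGAAG, a form of the ETS motif held by 13.9% of windows, matched 0 times in the members with a promoter. Other forms of that motif were not searched. Promoters were matched for 6 of the 10 members; Tek, Aplnr, Angpt2 and Vwf had none in the table. A match is a run of letters and not a tested binding site. No protein-coding gene lies between Prnp and Prnd in this assembly.

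At 3 weeks every lactating library held less Prnd than any non-lactating one. Prnd stood at 1.93, 1.55 and 4.08 CPM in the 3wk SBI libraries, from 18, 25 and 340 counts. It stood at 0.423, 0.130 and 0.330 CPM in the 3wk SBI + Lac libraries, from 13, 8 and 3 counts. The groups did not overlap, and the exact Poisson 95% intervals, which cover counting error only, ran from 0.0562 to 0.964 CPM over the lactating libraries and from 1.00 to 4.54 CPM over the others. The log2 fold change was -3.32 (SE 0.63), or 0.0999 times the non-lactating level. Without replicate 3 of 3wk SBI, the library with the most Prnd and the most counts, it was -2.70 (SE 0.66).

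Aplnr and Apln, the receptor and ligand of the apelin pathway, were the other members with a fitted log2 fold change below 0 at 3 weeks. Aplnr stood at 12.7, 19.3 and 19.3 CPM in 3wk SBI and at 11.8, 8.23 and 8.02 CPM in 3wk SBI + Lac, and the groups did not overlap. Its log2 fold change was -0.88 (SE 0.19). Apln stood at 4.29, 4.52 and 9.83 CPM in 3wk SBI and at 2.25, 2.20 and 6.16 CPM in 3wk SBI + Lac. The third replicate of each group was high. That of 3wk SBI + Lac exceeded the lower values of 3wk SBI, 4.29 and 4.52 CPM, so the groups overlapped. The Apln log2 fold change was -1.03 (SE 0.44), with -0.47 (SE 0.44) without 3wk SBI replicate 3 and -1.53 (SE 0.39) without 3wk SBI + Lac replicate 3.

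The tip cell marker Esm1 moved the other way from Prnd. It stood at 13.1, 11.2 and 5.32 CPM in 3wk SBI and at 19.8, 15.4 and 21.1 CPM in 3wk SBI + Lac, with a log2 fold change of 0.98 (SE 0.40). The 3wk SBI library with the highest Prnd and Apln held the lowest Esm1, and without it the Esm1 log2 fold change was 0.62 (SE 0.39). Angpt2, which is released by activated endothelium, ranged from 7.29 to 9.45 CPM in 3wk SBI and from 8.02 to 11.5 CPM in 3wk SBI + Lac, and its groups overlapped.

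Vegfa and its decoy receptor Flt1 were also higher with lactation at 3 weeks. Vegfa stood at 71.6, 64.3 and 65.1 CPM in 3wk SBI and at 89.2, 87.1 and 100.8 CPM in 3wk SBI + Lac, with a log2 fold change of 0.46 (SE 0.14). Flt1 stood at 34.3, 33.1 and 29.6 CPM in 3wk SBI and at 47.9, 40.4 and 45.8 CPM in 3wk SBI + Lac, with a log2 fold change of 0.47 (SE 0.12). Neither gene overlapped between the groups.

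The other receptors and Vwf showed no separation at 3 weeks. Kdr stood at 26.4, 25.6 and 35.3 CPM in 3wk SBI and at 40.3, 26.3 and 20.6 CPM in 3wk SBI + Lac, a log2 fold change of 0.0015 (SE 0.19) whose sign turned with the scaling. Without 3wk SBI + Lac replicate 1 it was -0.31 (SE 0.16). The log2 fold change of Tek was 0.077 (SE 0.12), and 0.23 (SE 0.12) without 3wk SBI replicate 3. That of Vwf was 0.13 (SE 0.14).

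By the sign of the fitted fold change, 3 members were lower and 7 higher at 3 weeks, with Kdr at 0.0015 among the 7. Their median log2 fold change was 0.10 beside -0.019 over all genes tested. Prnd met the call rule, as did 0.74% of all genes tested, but it was the gene that chose the set, so this count is no test of the members. The groups did not overlap for 5 members, Prnd, Aplnr, Flt1, Esm1 and Vegfa, where 22.3% of all genes tested did not overlap. Prnd, whose fall chose the set, is among these 5, so this count is no test of the members either.

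**Figure D1:**
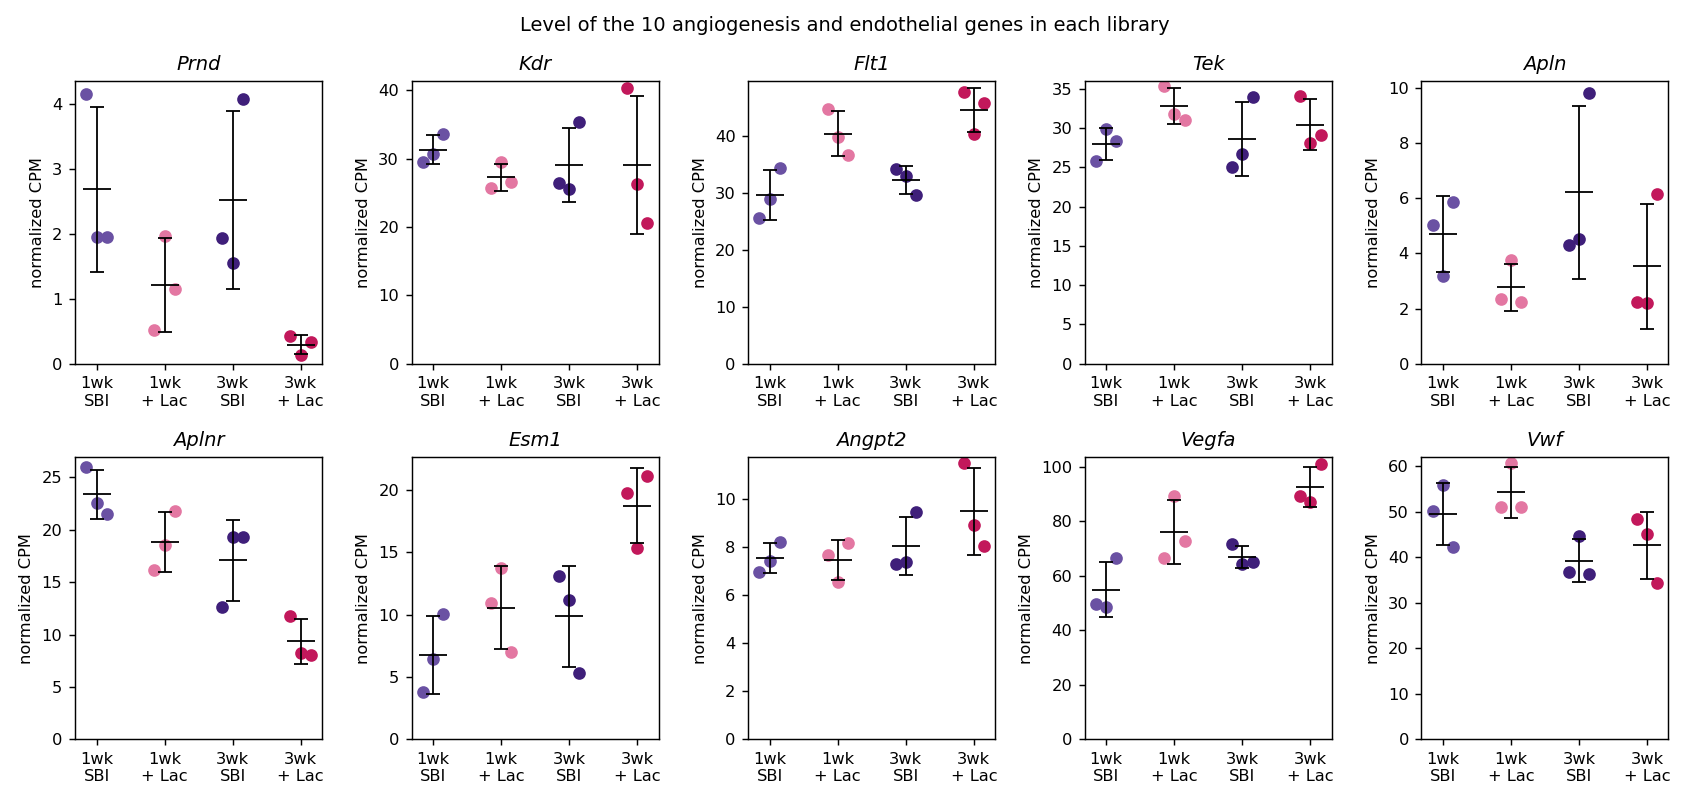
Normalized CPM of each of the 10 genes on a linear axis from 0, with 1 point per library, grouped by time and lactation; the bars are the mean and SD of 3 libraries. The 3wk SBI + Lac libraries hold Prnd at 0.130 to 0.423 CPM, below the other groups, and Esm1 at 15.4 to 21.1 CPM, above them.

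At 1 week, outside the comparison whose Prnd fall chose the set, 0 of the 10 members were called by edgeR. Of all genes tested, 0.253% were called. The set was nonetheless picked with earlier results of these data known, and the spread was estimated over all 12 libraries. EdgeR on the 6 libraries compared also called 0 members. DESeq2 called 0 members as well, and 3 had an unadjusted edgeR p under 0.05, as did 18.9% of all genes tested. Of the members, 5 were lower and 5 higher with lactation, with a median log2 fold change of 0.06 beside -0.0038 over all genes. The groups did not overlap for 2 members, Flt1 and Tek, where 28.4% of all genes did not overlap.

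Prnd stood at 4.15, 1.96 and 1.94 CPM in 1wk SBI and at 0.525, 1.97 and 1.15 CPM in 1wk SBI + Lac. A lactating library exceeded a pair of the non-lactating ones, so the groups overlapped. The log2 fold change was -1.15 (SE 0.51), with an edgeR adjusted p of 0.235. Leaving out 1wk SBI replicate 1 reduced it to -0.69 (SE 0.54), and leaving out 1wk SBI + Lac replicate 2 gave -1.66 (SE 0.56).

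Flt1 and Vegfa had the lowest adjusted p-values at 1 week. Flt1 stood at 25.6, 29.0 and 34.4 CPM in 1wk SBI and at 44.8, 40.0 and 36.7 CPM in 1wk SBI + Lac, with a log2 fold change of 0.45 (SE 0.12, edgeR adjusted p 0.0758). Vegfa stood at 49.5, 48.5 and 66.4 CPM in 1wk SBI and at 66.4, 89.2 and 72.6 CPM in 1wk SBI + Lac, with a log2 fold change of 0.47 (SE 0.14, edgeR adjusted p 0.0923). DESeq2 on all 12 libraries gave adjusted p-values of 0.0289 for Flt1 and 0.0329 for Vegfa, with log2 fold changes of 0.45 and 0.47. Without 1wk SBI replicate 3 the edgeR adjusted p was 0.0163 for Flt1 and 0.0122 for Vegfa, with log2 fold changes of 0.57 and 0.64. All of these fold changes were under the fold cutoff, so neither gene was called.

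The remaining members were not called at 1 week either. Aplnr had a log2 fold change of -0.31 (SE 0.17, edgeR adjusted p 0.341) and Apln of -0.76 (SE 0.42, edgeR adjusted p 0.343). Esm1 had a log2 fold change of 0.64 (SE 0.39, edgeR adjusted p 0.393) and Tek of 0.23 (SE 0.12, edgeR adjusted p 0.321). The Esm1 value rested on single libraries, at 0.35 without 1wk SBI replicate 1, 0.41 without 1wk SBI + Lac replicate 2 and 1.04 without 1wk SBI replicate 3. Kdr, Vwf and Angpt2 lay between -0.20 and 0.13, with edgeR adjusted p-values of 0.605, 0.631 and 0.980.

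**Figure D2:**
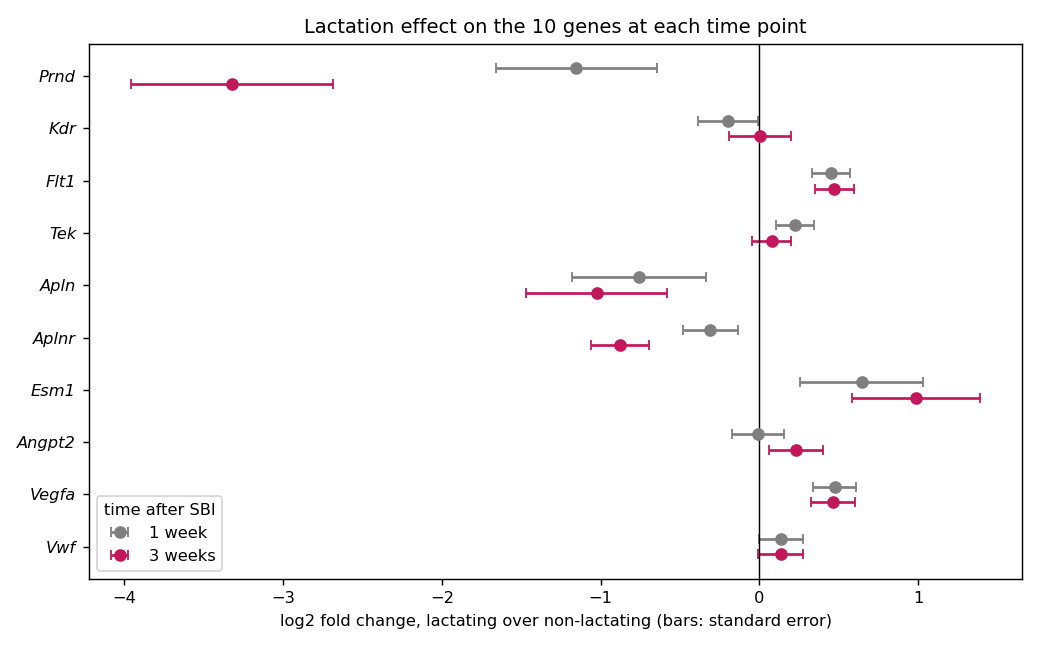
Log2 fold change of lactating over non-lactating libraries for each gene at 1 week (grey) and 3 weeks (magenta), with bars of 1 standard error. Prnd lies at -3.32 at 3 weeks and -1.15 at 1 week, and Esm1 at 0.98 and 0.64.

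The difference between the 3-week and the 1-week effect was -2.17 (SE 0.81) for Prnd and -0.57 (SE 0.25) for Aplnr. Without 3wk SBI replicate 3 the Prnd difference was -1.55. Between the time points, Prnd differed by -0.02 (SE 0.49) without lactation and by -2.19 (SE 0.64) with it, and Aplnr by -0.43 (SE 0.18) and -0.998 (SE 0.18). With 1 library left out, the Prnd value ran from -0.64 (without 3wk SBI replicate 3) to 0.43 (without 1wk SBI replicate 1) without lactation, and from -2.80 to -1.60 with it. Vwf differed by -0.33 and -0.34, and Vegfa by 0.29 and 0.28. The 3-week values carry decimals and the 1-week values do not, and 30 genes had 0 counts at 1 week and at least 100 at 3 weeks, against 0 genes the other way, so time and counting cannot be told apart in these 2 contrasts.

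The stable endothelial genes, a list of 17 that mark endothelium in any state, stayed together. Of the 16 tested, 12 were lower and 4 higher at 3 weeks, with log2 fold changes from -0.38 to 0.23 and a median of -0.087. EdgeR and DESeq2 each called 0 of them, with 2 at an unadjusted edgeR p under 0.05, and the groups did not overlap for 0. Over all genes tested, edgeR called 0.74%, 21.1% had an unadjusted edgeR p under 0.05 and 22.3% did not overlap. At 1 week 10 of the 16 were lower and 6 higher, with a median of -0.063. Again 0 were called by either tool, and 0 had an unadjusted edgeR p under 0.05. The groups did not overlap for 2. The all-gene shares at 1 week were 0.253%, 18.9% and 28.4%. Ptprb, an endothelial phosphatase, had log2 fold changes of 0.20 at 1 week and 0.15 at 3 weeks (edgeR adjusted p 0.405 and 0.525), and Cdh5, the endothelial cadherin, of -0.10 and -0.34 (edgeR adjusted p 0.713 and 0.167). These markers show that endothelial RNA was present in each library. In bulk RNA, fewer cells of a type and less RNA per cell cannot be told apart.

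Each member was then set against the mean log2 CPM of these 16 genes in its own library. Prnd lay at -2.99, -3.54 and -2.43 in 3wk SBI and at -5.35, -6.55 and -5.52 in 3wk SBI + Lac. The difference of the group means was -2.82, close to the -2.88 without the endothelial reference, and it was -2.69 against Pecam1 and Cdh5 alone. The Prnd difference was thus of similar size with and without the endothelial reference. On the same scale Aplnr differed by -0.80 with groups apart, and Apln by -0.80 with groups overlapping. Esm1 differed by 1.08, Flt1 by 0.53, Vegfa by 0.53 and Tek by 0.16, all with groups apart. Angpt2 differed by 0.30, Vwf by 0.18 and Kdr by 0.02, all with groups overlapping. The Tek groups overlapped in plain CPM. The share of all genes with groups apart was not computed on this scale, so these separations are a description only.

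**Figure D3:**
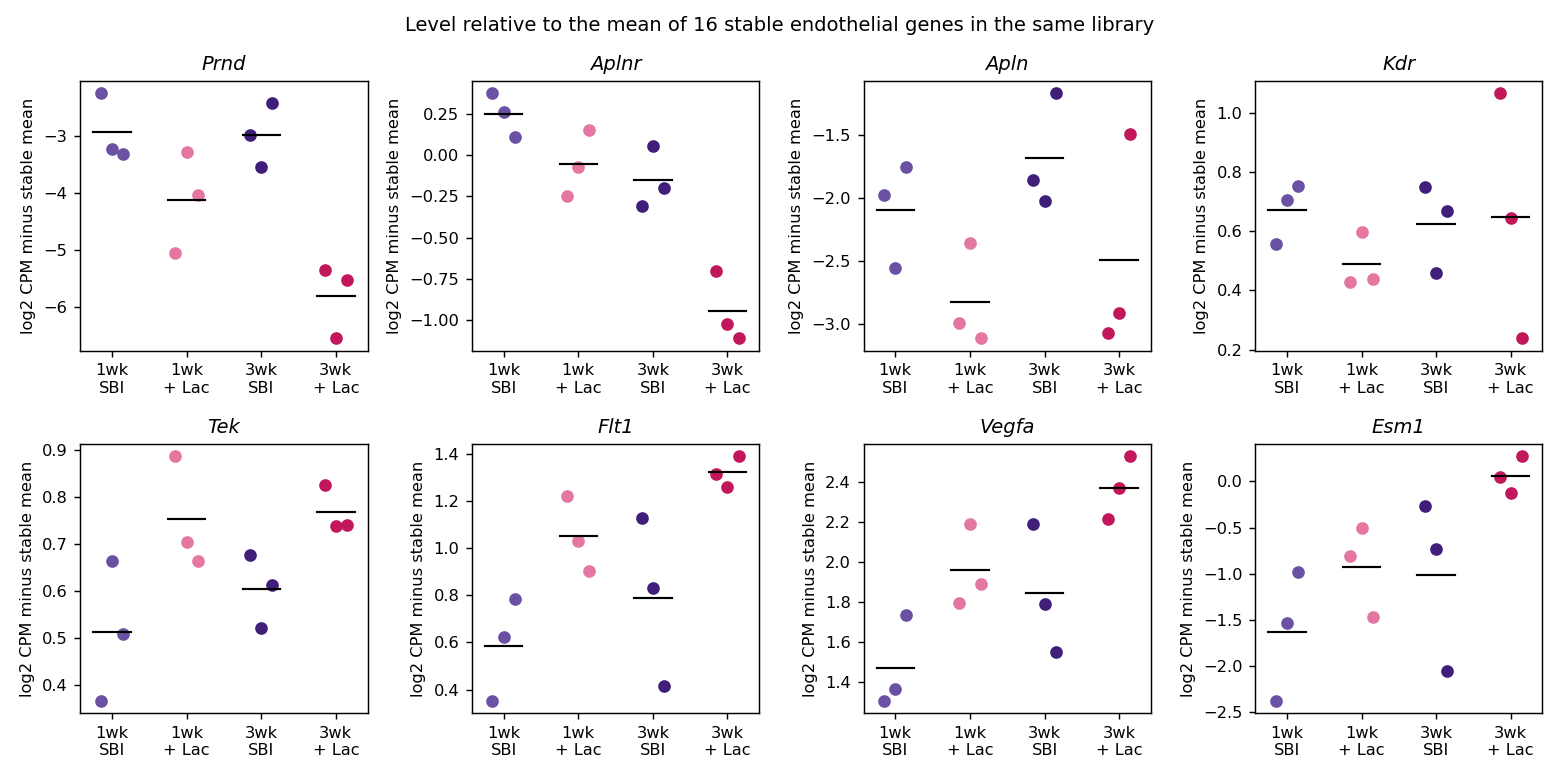
Log2 CPM of 8 genes minus the mean log2 CPM of 16 stable endothelial genes in the same library, 1 point per library, with lines at the group means; the axes differ between panels. Prnd spans -6.55 to -5.35 in 3wk SBI + Lac and -3.54 to -2.43 in 3wk SBI, while Kdr overlaps between all groups.

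Within 3wk SBI the libraries differed among themselves. Replicate 3 had the highest mean of the stable endothelial genes, 4.48 on the log2 scale against 3.98 and 4.22, and the highest Prnd, Apln, Kdr and Tek. It also had the lowest Esm1 and Flt1 of its group.

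Over all 12 libraries, the profiles most like that of Prnd were those of Prc1, Mest, Papln, Aspm and Cd28, with root mean square differences of 0.65, 0.66, 0.67, 0.72 and 0.74 in log2 CPM. The 12 libraries include those of the comparison whose Prnd fall chose the set. Likeness to Prnd is therefore not independent of that fall, and the ranks are a description only. Prc1 and Aspm act in the mitotic spindle, and Cd28 is a T cell co-receptor. No role is given here for Mest and Papln, and a shared function was not tested. A flat profile would lie at 1.35. Among 12019 genes, Aplnr ranked 121 (0.95), Apln 634 (1.10) and Kdr 3372 (1.29). The other members were each farther from Prnd than a flat profile. Vwf, Tek and Angpt2 ranked 5385 (1.36), 6651 (1.39) and 8711 (1.45), and Flt1, Vegfa and Esm1 ranked 11096, 11101 and 11953.

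A further 3 lists of the sprouting pathway, 34 genes with 32 tested, held 0 calls at either time by edgeR or DESeq2. Over all genes tested, edgeR called 0.253% at 1 week and 0.74% at 3 weeks. At 1 week 22 of the 32 were lower and 10 higher with a median log2 fold change of -0.087. Of the 32, 3 had an unadjusted edgeR p under 0.05, as did 18.9% of all genes tested. At 3 weeks 21 were lower and 11 higher with a median of -0.20, and 9 had an unadjusted edgeR p under 0.05, as did 21.1% of all genes tested. The groups did not overlap for 4 of the 32 at 1 week and 9 at 3 weeks, where the all-gene shares were 28.4% and 22.3%. Angpt1, the ligand that keeps Tek active, and Plxnd1, a semaphorin receptor, were the 2 with an adjusted p under 0.05 and were named after their values were seen. Angpt1 differed by -0.81 (SE 0.14, edgeR adjusted p 0.00934) and Plxnd1 by -0.66 (SE 0.15, edgeR adjusted p 0.0309) at 3 weeks.

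By role, 9 ligands were tested, 5 lower and 4 higher at each time. Of 7 receptors, 6 were lower and 1 higher at 1 week, and 4 lower and 3 higher at 3 weeks. Of 16 tip cell and Notch genes, 11 were lower and 5 higher at 1 week, and 12 lower and 4 higher at 3 weeks with a median of -0.33. The basement membrane collagens Col4a1 and Col4a2, the most abundant of these 16, had 3-week log2 fold changes of -0.70 and -0.73 (edgeR adjusted p 0.101 and 0.102).

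Among 11 hypoxia response genes, 9 were higher and 2 lower at 1 week, and 8 higher and 3 lower at 3 weeks. Each time 0 were called by either tool and 3 had an unadjusted edgeR p under 0.05. Over all genes tested, edgeR called 0.253% and 0.74%, and 18.9% and 21.1% had an unadjusted edgeR p under 0.05. Egln1, the oxygen sensor that marks HIF for breakdown, differed by 0.74 (SE 0.14, edgeR adjusted p 0.0160) and Hif1a by -0.47 (SE 0.11, edgeR adjusted p 0.0439) at 3 weeks, both named after their values were seen. The prion protein gene Prnp had log2 fold changes of 0.35 (edgeR adjusted p 0.105) and 0.025 (edgeR adjusted p 0.923), and the paralog Sprn of -0.56 (edgeR adjusted p 0.459) and -0.44 (edgeR adjusted p 0.589).

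**Figure D4:**
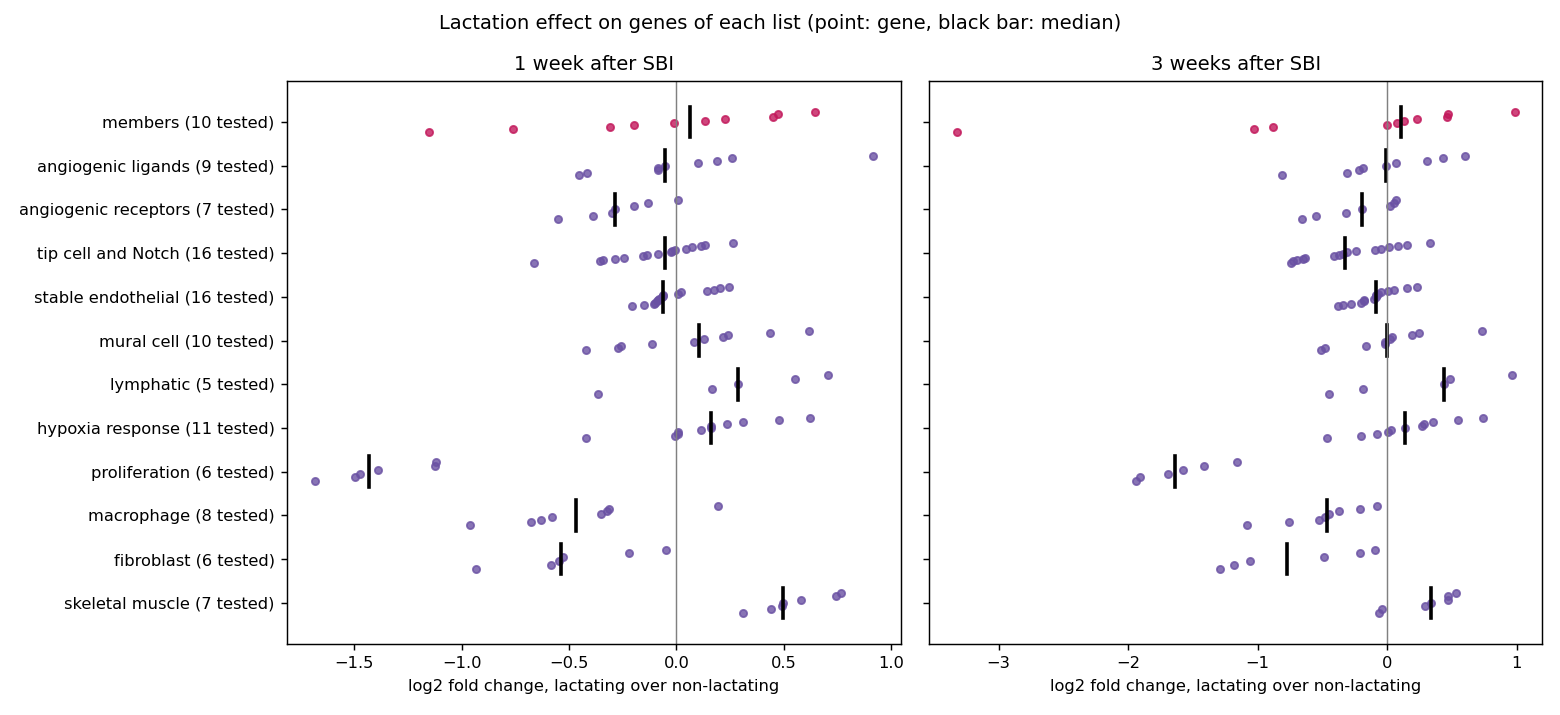
Log2 fold change of lactating over non-lactating libraries at 1 week and at 3 weeks for each tested gene of 12 lists, with the list median as a black bar; the 2 panels have different scales. The 16 stable endothelial genes lie between -0.38 and 0.23 at 3 weeks, and the 6 proliferation genes lie below 0 at both times.

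Markers of other cells moved with the same comparison. Their part in the member values, those of Prnd, Aplnr, Vegfa and Flt1 among them, was not tested. All 6 proliferation genes were lower with lactation at both times, with medians of -1.43 and -1.64 and 0 called by edgeR (1 by DESeq2 each time, 2 at an unadjusted edgeR p under 0.05). Over all genes tested, edgeR called 0.253% and 0.74%, and 18.9% and 21.1% had an unadjusted edgeR p under 0.05. The summed level of the 6 proliferation genes ran from 3.72 to 17.0 CPM in 3wk SBI and from 2.75 to 3.61 CPM in 3wk SBI + Lac. All 6 fibroblast genes were lower at both times, with 0 called by either tool. Their lowest edgeR adjusted p-values were 0.274 at 1 week and 0.0967 at 3 weeks. The sum of these 6 genes ran from 2933 to 6837 CPM in 3wk SBI and from 1769 to 2566 CPM in 3wk SBI + Lac. All 8 macrophage genes were lower at 3 weeks, with Cd68, a lysosomal protein of macrophages, called at -1.08 (SE 0.20, edgeR adjusted p 0.0150). The sum of 7 skeletal muscle genes ran from 109560 to 147063 CPM in 3wk SBI and from 160198 to 182001 CPM in 3wk SBI + Lac. Of these 7 genes, 5 were higher and 2 lower at 3 weeks, with 0 called by either tool (lowest edgeR adjusted p 0.196). Of 10 mural cell genes, which mark the pericytes and smooth muscle around vessels, 5 were lower and 5 higher at 3 weeks, with a median of 0.0014. Of 5 lymphatic genes, 2 were lower and 3 higher, with a median of 0.44. Of 8 platelet genes only 2 passed the low-count filter, and Ppbp was at 0 in every library. Of 4 muscle capillary genes, 1 was lower and 3 higher at 1 week, and 3 lower and 1 higher at 3 weeks. The sum of 5 milk protein genes was 0 in every 1wk SBI library and ran from 0.557 to 2.80 CPM in 1wk SBI + Lac. At 3 weeks this sum ran from 0 to 0.0120 CPM in 3wk SBI and from 0.330 to 36.8 CPM in 3wk SBI + Lac.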

How the data were processed

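Pubocaudalis RNA of 4 groups was sequenced from a stranded mRNA kit, with 3 libraries per group and 2 rats in each pool. The authors deposited gene counts: the 1-week columns hold whole counts, and the 3-week columns, as deposited, hold estimated counts with decimals in 26.6 to 44.0% of values, which were rounded for the tests. The submitters' processing notes name Salmon. The aligner, genome build and annotation are not given in the sources used here. Total counts ran from 10082734 to 75634391. The p-values measure the spread between pools.

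One edgeR 4.0.16 quasi-likelihood model (R 4.3.3, TMM, filterByExpr, robust) was fitted to all 12 libraries and 4 groups, with Benjamini-Hochberg adjustment over 14599 genes and cutoffs of 0.05 and an absolute log2 fold change of 1. Standard errors are the absolute fold change on the log2 scale divided by the root of F. Log2 CPM used a prior count of 2. The study used DESeq2, run here (1.42.0) as an alternative. The model was tested on simulated data. Likeness to Prnd was ranked over genes with a symbol and a mean of at least 1 CPM. All 10 members are named. Of the other lists, up to 3 called genes each are named, or up to 2 with the highest CPM where none was called. Angpt1, Plxnd1, Egln1 and Hif1a are exceptions, named for an edgeR adjusted p under 0.05 at 3 weeks after their values were seen. The members and lists were chosen with earlier results of these data known. Of the listed genes, 5 were not in the table. Replicates of a group differed by more than sampling noise (chi-square over its degrees of freedom, 22.1 to 100.1), so none was merged. Same-numbered libraries did not deviate together, so no pairing was used.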

Additional observations from a re-analysis of the deposited data

How the results depend on the processing

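The number of members called at 1 week stayed 0 under every normalization, filter, tool and left-out library tried. The number of members lower at 3 weeks was 3 in the main fit, with RLE normalization and when scaled to stable endothelial genes. It was 4 with upper-quartile normalization, no low-count filter, a replicate block, DESeq2 on all 12 libraries, and either tool on the 6 libraries compared. With at least 10 counts in every library, where Prnd has no value, it was 3. It ran from 3 to 5 with 1 library left out (5 without 3wk SBI replicate 1 or without 3wk SBI + Lac replicate 1). The number with a more negative effect at 3 weeks than at 1 week was 6, and 3 to 7 with 1 library left out (3 without 1wk SBI + Lac replicate 2). The number higher at 3 weeks than at 1 week without lactation was 6, and 3 to 8 with 1 library left out (3 without 3wk SBI replicate 3).

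With 1 library left out, the sign of the lactation log2 fold change turned for Kdr and Tek at 3 weeks and for Angpt2 at 1 week, all near 0, and for no other member. The Prnd log2 fold change at 3 weeks ran from -3.35 to -3.20 over 8 other settings and from -3.94 to -2.70 with 1 library left out. It has no value with at least 10 counts in every library, since its counts fall below 10 there. DESeq2 on 12 libraries called 188 genes at 1 week and 242 at 3 weeks, against 37 and 108 by edgeR; the cause was not tested. With the replicate block, 0 members were called at 1 week and 4 were lower at 3 weeks, and the 1-week Prnd log2 fold change was -1.09. Same-numbered libraries correlated at -0.233 to -0.0046, so the numbers do not pair the samples. With 3 to 25 counts of Prnd in 5 of the 6 libraries at 3 weeks, depth limits how finely its level is known.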
